A study of Mus musculus with 4 samples.

Results

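The genes described here encode the basic leucine zipper (bZIP) transcription factors other than Atf4 itself: 50 genes of the ATF, CREB, CEBP, FOS, JUN, BATF, MAF, NFE2, BACH and PAR families, with Xbp1, Crebrf and Crebzf. They were chosen by gene name, with earlier results of these data known, and all 50 matched 1 of the 21896 protein-coding gene models of mm10. The study pulled down chromatin bound by ATF4 from the heart ventricle of mice aged 4 weeks, in 2 ATF4 pull-down samples (titled ATF4-bio1 and ATF4-bio2) and 2 input samples of sheared chromatin without pull-down, whose values are not analysed here. The series title names cardiomyocytes in vivo, whereas the tissue label names the whole ventricle, which also holds other cells. The labels give no strain, sex or genotype and no number of animals, and nothing in them states that each sample is a separate animal. For the pull-down samples AAV stands in the antibody field, unexplained, and the beads carried streptavidin, so it cannot be told whether the ATF4 that was pulled down was the heart's own.

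A bZIP factor grips DNA with a basic region and pairs with a second bZIP protein through its leucine zipper. ATF4, the main effector of the integrated stress response, pairs mostly with members of the CEBP family and binds a composite site made of an ATF and a CEBP element. Several bZIP genes, Atf3 and Ddit3 among them, are known from other cells as targets of ATF4, and their products can pair with ATF4 or compete with it for sites. The question here is where ATF4 peaks lay at the genes of its partners and relatives.

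Each pull-down sample had a list of peaks (78746 in replicate 1 and 88812 in replicate 2), and a series-wide list held 41639 peaks. A value is given below as the authors' fold enrichment over a background that the files do not name. In the series-wide list this fold rises in equal steps of 0.50 or 0.443, one step per replicate, so every peak of a replicate was divided by the same background and local input was not divided out. Sequencing depth is unknown, and a peak alone is no proof that ATF4 was bound. All 5 heart muscle genes checked (Tnnt2, Myh6, Actc1, Ryr2 and Tnni3) had a peak of the series-wide list at a gene end (within 1 kb). The share over all protein-coding genes was 34.9%. Their folds ran from 9.75 at Ryr2 to 62.0 at Tnnt2, against a median of 13.3 over all genes with such a peak. The lists hold no RNA, so they cannot check the tissue by expression. The replicate lists stop before the series-wide list on 9 chromosomes. On chromosome 15 they end at positions 101984636 and 101988379, while the series-wide list runs to 103388940, and Atf7 and Nfe2 lie beyond that point. These 2 genes could have no replicate peak, and their values come from the series-wide list alone.

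Most bZIP genes carried a peak at a gene end. A series-wide peak lay within 1 kb of either end of the gene model at 38 of the 50 genes (76%), against 34.9% of all protein-coding genes. Replicate 1 had a peak there at 40 genes (80%), against 48.2% of all genes, and replicate 2 at 39 genes (78%), against 50.2%. The same 39 genes had one in both replicates, against 45.2% of all genes, and the single gene with a peak in one replicate alone was Maf, at 5.50-fold in replicate 1. Neither replicate had one at 10 genes (20%), against 46.8% of all genes, and Atf7 and Nfe2, which the replicate lists do not reach, are among these 10. The bZIP genes thus had gene-end peaks more often than the background in every list, and the 2 samples gave them at nearly the same genes. Strong peaks were also more frequent: 9 genes (18%) had a gene-end peak among the 20% of series-wide peaks with the highest fold (21.5 and above), against 5.66% of all genes, and 6 genes (12%) had one of 30-fold or more, against 2.42%. The median series-wide fold was 14.4 over the 38 bZIP genes, against 13.3 over all 7641 genes with a gene-end peak. In replicate 1 the median was 11.8 over 40 bZIP genes, against 10 over all genes with a peak there, and in replicate 2 it was 14.2 over 39 bZIP genes, against 10.2. The strongest gene-end peak was wider at bZIP genes, with a median of 905 bp, against 643 bp at all such genes.

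Where the start of the gene is listed, most bZIP genes had a peak near it. A start and strand were listed for 40 of the 50 genes; Atf6, Creb3l1, Crem, Cebpd, Cebpe, Fosl1, Batf2, Maf, Mafa and Nfe2 had no entry. Of the 40, 31 (77.5%) had such a peak near a listed start (1 kb), against 35.4% of 17491 protein-coding genes with an entry. Peaks within 1 kb of the far end occurred at 5 of the 40 (12.5%, against 5.93%), namely Jun, Junb, Jund, Cebpb and Atf6b; the first 4 are short genes of 1518 to 3187 bp. The strongest gene-end peak of 16 of 32 genes had its summit within 250 bp of a start, 23 within 500 bp, and 21 of the 32 summits lay upstream. These peaks were picked by the 1 kb window, which itself favours short distances. No matching shares over all protein-coding genes are given, so the distances are not read as a trait of bZIP genes.

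**Figure D1:**
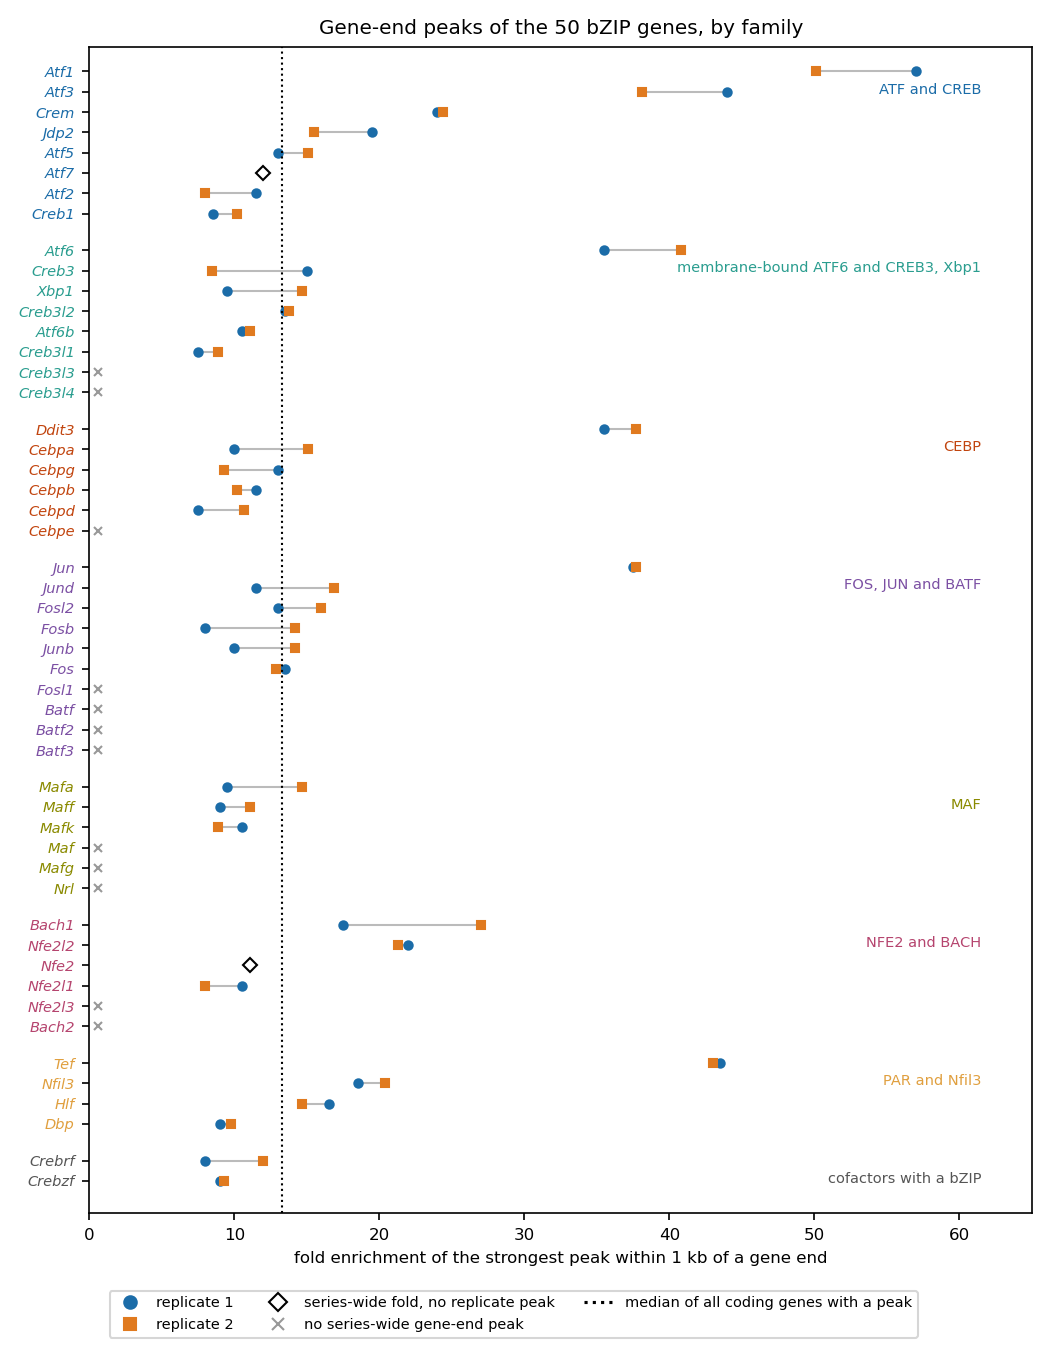
Fold enrichment (x axis) of the strongest peak within 1 kb of a gene end for each of the 50 bZIP genes, grouped by family, in replicate 1 (circles) and replicate 2 (squares); grey lines join the replicates. Open diamonds give the series-wide fold of Atf7 and Nfe2, which lie beyond the replicate lists, crosses mark the 12 genes with no series-wide gene-end peak, and the dotted line is the median of the series-wide fold, 13.3, over all protein-coding genes with such a peak. Where both replicates are drawn, the higher mark equals the series-wide fold. Atf1, Atf3, Atf6, Ddit3, Jun and Tef stand at 35.5-fold or more in both replicates, and the other genes with a series-wide peak lie between 7.5 and 27.0.

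Promoter letters were searched in 250 bases before and 50 bases after each listed start, on both strands, in RefSeq sequences of GRCm38.p6, the assembly of mm10. Motifs were the ATF-CEBP composite (TGATGNAAN), the cAMP response element or CRE (TGACGTCA), the AP-1 site (TGAGTCA or TGACTCA, each the reverse complement of the other) and the D-box of the PAR factors (TTATGTAA or TTACGTAA). The composite was found at 2 of 40 bZIP genes (5.00%), against 4.11% of all genes with an entry, and the CRE at 2 (5.00%, against 2.54%). AP-1 sites were found at 2 (5.00%, against 5.40%) and a D-box at 1 (2.50%, against 1.19%). Each of these shares rests on 1 or 2 genes, so no difference from the background is read from them. Over all 21262 promoter entries of coding genes, those touched by a series-wide peak held the composite in 2.30% of cases, against 4.15% of those without a peak, and the CRE in 4.17%, against 1.38%. The AP-1 site (3.23%, against 5.29%) and the D-box (0.72%, against 1.17%) were also less frequent with a peak, so only the CRE was more frequent. Several of these promoters are printed because a peak covers them and they hold one of the motifs, or because the summit of a strong peak falls in them. Both composite promoters belong to genes of close relatives, Atf3 and Jdp2, and capitals mark the composite, which is read on the opposite strand in Atf3. The Atf3 stretch is chr1:191183384-191183583 (minus strand, bases -250 to -51 from the start), and the composite at bases -111 to -103 has the summit at -67 bp from its centre. The Jdp2 stretch is chr12:85599266-85599415 (plus strand, bases -150 to -1), and its composite at bases -33 to -25 has the summit at -23 bp from its centre.
Atf3: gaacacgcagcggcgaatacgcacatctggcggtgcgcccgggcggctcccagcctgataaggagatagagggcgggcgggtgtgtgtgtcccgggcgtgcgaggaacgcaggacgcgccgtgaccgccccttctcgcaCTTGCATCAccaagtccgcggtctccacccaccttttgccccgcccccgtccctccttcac
Jdp2: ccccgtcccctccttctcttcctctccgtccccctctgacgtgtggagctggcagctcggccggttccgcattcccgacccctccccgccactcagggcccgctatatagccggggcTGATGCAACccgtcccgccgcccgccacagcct

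The CRE is shown, in capitals, in the promoters of Hlf (chr11:90390918-90391017, minus strand, bases -100 to -1) and Maff (chr15:79347420-79347519, plus strand, bases -100 to -1). In Hlf the summit lies at -47 bp from the centre of the CRE, a negative value meaning upstream. In Maff it lies inside the peak but 564 bp from the summit.
Hlf: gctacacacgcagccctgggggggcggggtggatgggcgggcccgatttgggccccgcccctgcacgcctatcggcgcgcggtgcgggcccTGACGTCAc
Maff: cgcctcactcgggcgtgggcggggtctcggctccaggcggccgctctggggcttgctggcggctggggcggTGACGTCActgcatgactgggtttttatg

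Ddit3 holds an AP-1 site, in capitals, inside its peak but 262 bp upstream of the summit (chr10:127290543-127290642, plus strand). Tef (chr15:81802423-81802572, plus strand) and Jun (chr4:95052223-95052322, minus strand, bases -100 to -1) are shown because the summit of a peak of over 37-fold falls inside the stretch. Neither holds the exact letters of any of the 4 motifs. Near matches were not searched, and the Jun stretch holds tgacatca, which is close to the CRE.
Ddit3: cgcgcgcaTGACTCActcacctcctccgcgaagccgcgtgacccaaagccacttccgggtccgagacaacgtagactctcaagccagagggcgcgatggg
Tef: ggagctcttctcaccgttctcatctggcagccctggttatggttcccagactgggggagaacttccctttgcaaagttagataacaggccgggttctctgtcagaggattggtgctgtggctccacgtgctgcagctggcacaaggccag
Jun: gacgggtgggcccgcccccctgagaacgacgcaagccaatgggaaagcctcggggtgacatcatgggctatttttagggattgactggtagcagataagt

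All 8 genes of the ATF and CREB family had a series-wide gene-end peak, with a median fold of 17.3, the second highest of the 8 families after the PAR group. Atf1, a close relative of CREB, had the strongest gene-end peak of any bZIP gene, with a summit at base -737 from its start (chromosome 15, 100226739 to 100227994). It reached 57.0-fold in replicate 1 and 50.1-fold in replicate 2 (53.5 ± 4.89, SD, n = 2). Its series-wide fold exceeded that of 99.4% of all genes with a gene-end peak. Atf3, a stress-induced factor that represses many targets, had 44.0-fold in replicate 1 and 38.1-fold in replicate 2 (41.1 ± 4.16, SD, n = 2), with a summit at base -174 from the start on the composite-bearing promoter (chromosome 1, 191183091 to 191184033). A second Atf3 peak, with its summit 771 bp inside the gene, had 12 and 13.7-fold in replicates 1 and 2. Crem, which encodes cAMP-responsive activators and repressors, had 24.0 and 24.4-fold in replicates 1 and 2 (24.2 ± 0.267, SD, n = 2). Jdp2, a repressor of AP-1, had 19.5 and 15.5-fold in replicates 1 and 2 (17.5 ± 2.82, SD, n = 2). All 4 genes were above the median of genes with a gene-end peak in each sample, 10 in replicate 1 and 10.2 in replicate 2. Atf1 had a second gene-end peak 1277 bp downstream of its start, at 20.0 and 23.5-fold.

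The other ATF and CREB genes had weaker gene-end peaks. Atf5, whose translation is controlled by upstream reading frames as that of Atf4 is, had 13.0 and 15.1-fold in replicates 1 and 2 (14.0 ± 1.46, SD, n = 2) at its end. That peak also touches the ends of Nup62 and Il4i1b, so it cannot be assigned to Atf5 alone. A stronger peak in the Atf5 window, with 33.0 and 35.0-fold in replicates 1 and 2 (34.0 ± 1.43, SD, n = 2), had its summit at base -2443 from a listed start. Other gene ends were checked only for each gene's strongest gene-end peak, so peaks in the flanks may belong to other genes. Creb1, the prototype CREB gene, had 8.5 and 10.2-fold in replicates 1 and 2 at its end, and a stronger peak at base -9986 from its start, with 25.5 and 31.9-fold (28.7 ± 4.54, SD, n = 2). Atf2, a target of stress kinases, had 11.5 and 7.98-fold in replicates 1 and 2. Its relative Atf7 had a series-wide value of 12. Atf2, Atf7 and Creb1 were all below the 13.3-fold median of genes with a gene-end peak.

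Factors that sit in the membrane of the endoplasmic reticulum or act in its stress response had a gene-end peak at 6 of 8 genes, with a median fold of 14.2. Atf6, which is cut free from the membrane when unfolded proteins accumulate, was the strongest by far (chromosome 1, 170867488 to 170868214). It had 35.5-fold in replicate 1 and 40.8-fold in replicate 2 (38.1 ± 3.73, SD, n = 2). Atf6 had 7 peaks in and within 10 kb of the gene, and 4 of them had their summits within 3 kb of this same end, at 11.5 to 40.8-fold in the series-wide list. Its paralog Atf6b had no series-wide peak at its start; a peak past its far end had 10.5 and 11.1-fold in replicates 1 and 2 (10.8 ± 0.411, SD, n = 2). The gene-end peak of Atf6 was higher than that of Atf6b in both replicates.

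Xbp1, whose RNA is spliced by the stress sensor IRE1, had 9.50 and 14.6-fold in replicates 1 and 2 (12.1 ± 3.63, SD, n = 2) just inside its start, and a second peak at 13.0 and 10.6-fold. Creb3 had the largest relative difference between replicates among the strongest gene-end peaks of the bZIP genes, at 15.0-fold in replicate 1 and 8.42-fold in replicate 2 (11.7 ± 4.65, SD, n = 2), and its peak also touches an end of Tln1. Creb3l1 and Creb3l2 drive secretory genes in collagen-producing cells. Both had a modest peak at the gene end and a stronger one inside the gene. Creb3l1 had 7.5 and 8.87-fold in replicates 1 and 2 at its end, and 36.0 and 37.2-fold (36.6 ± 0.871, SD, n = 2) at a peak inside the gene. Creb3l2 had 13.5 and 13.7-fold in replicates 1 and 2 at its start, and 19.0 and 28.8-fold (23.9 ± 6.94, SD, n = 2) at a peak 35018 bp downstream of it. Creb3l4 had no series-wide gene-end peak, and the replicates gave 6.0 and 5.32-fold there, under the lowest series-wide value of 7.5. Creb3l3, a factor of liver and gut, had no gene-end peak in any list and 0 series-wide peaks within 10 kb.

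The CEBP family, which supplies the usual partners of ATF4, had a gene-end peak at 5 of 6 genes, with a median fold of 13.0. Ddit3, which encodes CHOP, the stress-induced CEBP member tied to cell death, stood apart from the other members. Its 2545 bp peak over the start (chromosome 10, 127288809 to 127291353) had 35.5-fold in replicate 1 and 37.7-fold in replicate 2 (36.6 ± 1.54, SD, n = 2). It was followed by a second peak at 19.5 and 16.0-fold and another at 13.5 and 10.6-fold in replicates 1 and 2, so that 3 peaks lay across the gene. The first of these also touches an end of the neighbouring gene Mbd6.

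The other CEBP genes had series-wide folds of 10.6 to 15.1, and Cebpa alone was above the 13.3-fold median of genes with a gene-end peak. Cebpg, a short CEBP protein that pairs with ATF4, had 13.0 and 9.31-fold in replicates 1 and 2 (11.2 ± 2.61, SD, n = 2), at a peak that also touches an end of Gm45095. For Cebpb, another known partner, the only gene-end peak of the series-wide list was assigned to the far end and not to the start. That peak had 11.5 and 10.2-fold in replicates 1 and 2 (10.8 ± 0.923, SD, n = 2). Replicates 1 and 2 held 3 and 2 peaks at the Cebpb gene ends, which were not divided between start and far end. Cebpb had 5 series-wide peaks in its window, and the strongest, at 20.5 and 16.4-fold, lay at base -8836 from the start. Cebpa had 10 and 15.1-fold, and Cebpd 7.5 and 10.6-fold, in replicates 1 and 2. A second gene-end peak of Cebpd had 10.5 and 9.31-fold. Cebpe, a factor of granulocytes, had no gene-end peak in any list and 2 peaks within 10 kb, the stronger at 18.5 and 10.2-fold in replicates 1 and 2.

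The FOS, JUN and BATF group, which makes up the AP-1 factors, was divided. All 3 JUN genes and 3 of the 4 FOS genes had a series-wide gene-end peak, and none of the 3 BATF genes had one in any list. Among the strongest gene-end peaks, that of Jun had the most even values (chromosome 4, 95051451 to 95054115). It had 37.5-fold in replicate 1 and 37.7-fold in replicate 2 (37.6 ± 0.124, SD, n = 2), at a peak of 2665 bp with its summit at base -15 from the start. A second peak near its far end had 9.0 and 13.3-fold.

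The other JUN and FOS genes were lower in both replicates than Jun. Jund had 11.5 and 16.8-fold in replicates 1 and 2 (14.2 ± 3.78, SD, n = 2), and Junb had 10 and 14.2-fold (12.1 ± 2.96, SD, n = 2). Fosl2, which encodes FRA2, had 13.0 and 16.0-fold, and Fos had 13.5 and 12.9-fold at its start. Fos also had a stronger peak at base -1557, with 18.0 and 23.5-fold (20.7 ± 3.88, SD, n = 2). Fosb differed between samples nearly as much as Creb3, but the other way, with 8.0-fold in replicate 1 and 14.2-fold in replicate 2 (11.1 ± 4.37, SD, n = 2). Fosl1 had no gene-end peak and 3 peaks within 10 kb. Batf had 2 peaks within 10 kb, and Batf2 and Batf3, factors of immune cells, had 0 in the series-wide list.

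In the series-wide list the MAF family had the lowest share of gene-end peaks, at 3 of 6 genes with a median fold of 11.1. The share over all protein-coding genes was 34.9%. Both replicates had a gene-end peak at 4 of the 6 MAF genes, against 6 of 10 in the FOS, JUN and BATF group, so the rank did not hold there. Mafa, a large MAF known from pancreatic beta cells, had 9.50 and 14.6-fold in replicates 1 and 2 (12.1 ± 3.63, SD, n = 2). The small MAF genes, whose products lack an activation domain and pair with NFE2 and BACH proteins, had weak or no gene-end peaks. Maff had 9.0 and 11.1-fold and Mafk 10.5 and 8.87-fold in replicates 1 and 2. Mafg had 6.0 and 7.54-fold in the replicate lists and no series-wide peak near the ends of its model, but a peak 613 bp downstream of its listed start had 7.5 and 7.98-fold. Mafk nevertheless held one of the strongest peaks of any bZIP window, 6452 bp inside the gene (chromosome 5, 139797710 to 139798483). It had 54.5-fold in replicate 1 and 47.4-fold in replicate 2 (51.0 ± 5.00, SD, n = 2). The mean differs from that of the Atf1 peak by less than the SD of either, although Atf1 was higher in both replicates, at 57.0 and 50.1-fold. Maf and Nrl, a retinal factor, had 0 series-wide peaks within 10 kb.

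NFE2 and BACH genes had a gene-end peak at 4 of 6, with a median fold of 16.5. Bach1, a heme-sensing repressor of antioxidant genes, had 17.5-fold in replicate 1 and 27.0-fold in replicate 2 (22.3 ± 6.74, SD, n = 2), at a peak 688 bp downstream of its start. Nfe2l2, which encodes NRF2, the activator of the same antioxidant genes, had 22.0 and 21.3-fold in replicates 1 and 2 (21.6 ± 0.512, SD, n = 2). Both were above the median of genes with a peak in both samples. Nfe2l1, which induces proteasome genes, had 10.5 and 7.98-fold at its end and 34.5 and 22.6-fold (28.6 ± 8.41, SD, n = 2) at a peak inside the gene. Nfe2, a factor of blood cell precursors, had a series-wide value of 11.1. Nfe2l3 had no gene-end peak in any list and 1 peak within 10 kb.

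Bach2, known as a repressor in lymphocytes, had its peaks inside the gene and not at its ends. It had no series-wide gene-end peak, and the replicates gave 7.5 and 5.32-fold there, yet 17 series-wide peaks lay inside the gene, the most of any bZIP gene. Replicate 1 had 33 peaks in the gene and within 10 kb of it and replicate 2 had 36. Bach2 is also by far the longest member, at 347697 bp, and its density of 4.62 peaks per 100 kb was below the 6.57 of all bZIP windows together. Of these peaks, 3 reached 30-fold or more, at 65414, 99420 and 268809 bp from the 5′ end of the model, whose listed start lies inside it. The first had 46.5 and 53.6-fold in replicates 1 and 2 (50.1 ± 5.04, SD, n = 2), and the other pair had 39.0 and 48.3-fold and 46.0 and 50.5-fold. All 3 were high in both samples.

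The PAR factors Dbp, Hlf and Tef carry the output of the circadian clock through D-box sites, which Nfil3 represses. All 4 genes had a gene-end peak, with a median fold of 18.4. Tef had 43.5-fold in replicate 1 and 43.0-fold in replicate 2 (43.2 ± 0.358, SD, n = 2), at a peak with its summit at base -179 (chromosome 15, 81802136 to 81803058). Nfil3 had 18.5 and 20.4-fold in replicates 1 and 2 (19.4 ± 1.34, SD, n = 2) at its end and 33.0 and 28.4-fold (30.7 ± 3.28, SD, n = 2) at a peak inside the gene. Hlf had 16.5 and 14.6-fold in replicates 1 and 2 (15.6 ± 1.32, SD, n = 2) on the promoter with the CRE, and Dbp had 9.0 and 9.75-fold (9.38 ± 0.531, SD, n = 2), at a peak that also touches an end of Car11. The order of the 4 genes, Tef, Nfil3, Hlf and Dbp, was the same in both replicates. Hlf and Tef each had 7 peaks in their windows and Dbp had 6 around a gene of 5104 bp.

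The cofactors with a bZIP domain had low peaks. Crebrf, a regulator of the stress-induced factor Creb3, had 8.0 and 12-fold in replicates 1 and 2 (9.98 ± 2.81, SD, n = 2), with its summit at base -12 from the start. Crebzf had 9.0 and 9.31-fold (9.15 ± 0.218, SD, n = 2).

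**Figure D2:**
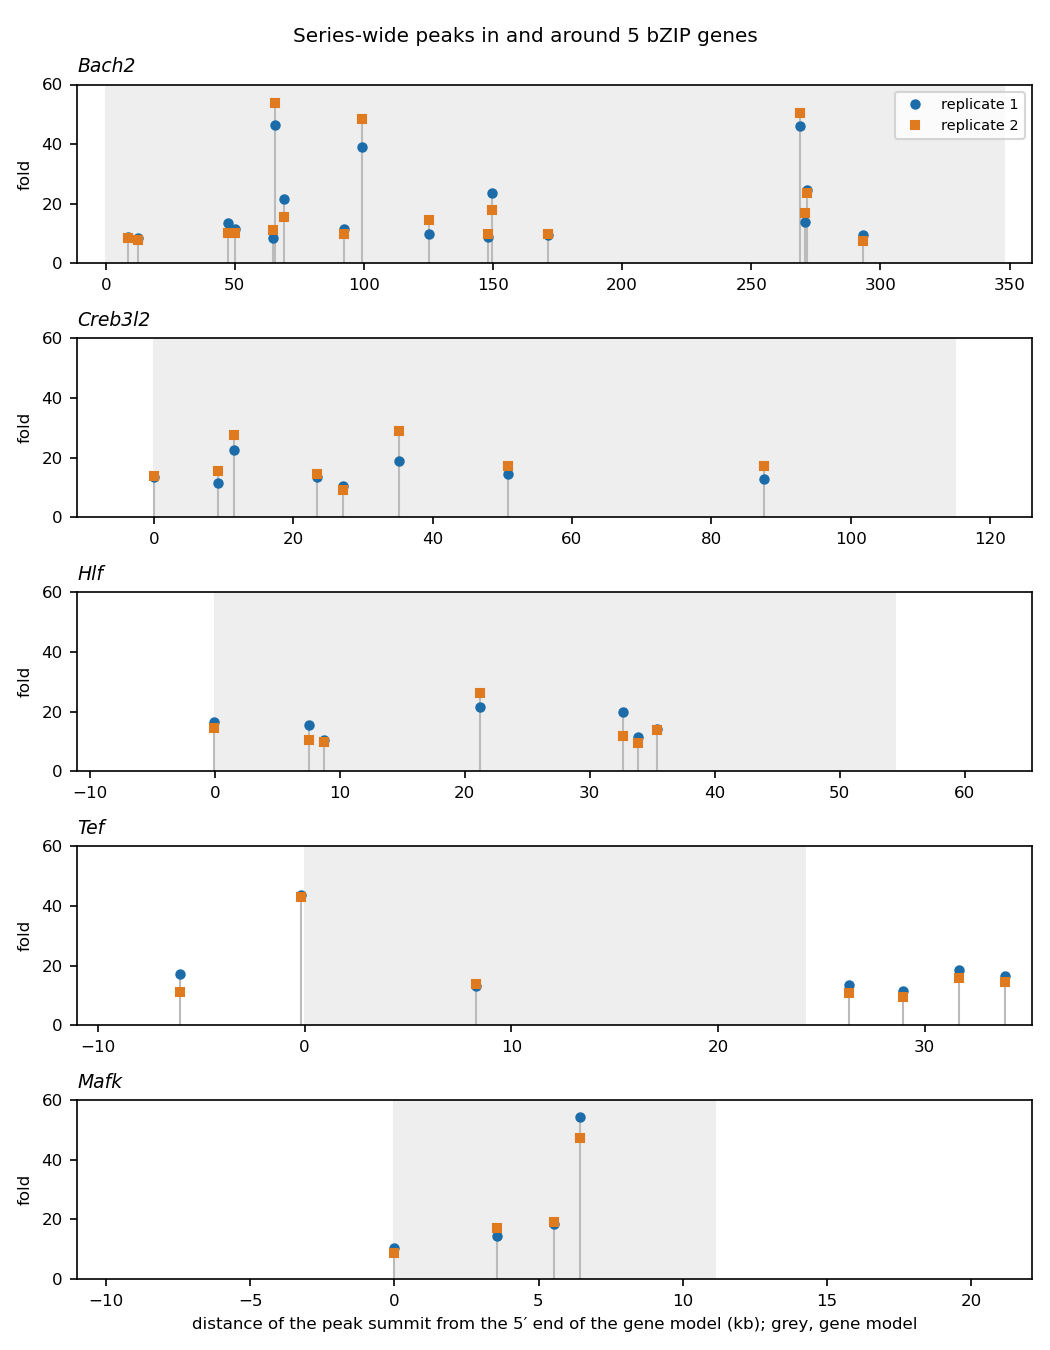
Fold enrichment (y axis) of every series-wide peak in and within 10 kb of Bach2, Creb3l2, Hlf, Tef and Mafk, in replicate 1 (circles) and replicate 2 (squares), by the distance in kb of its summit from the 5′ end of the gene model (x axis, a scale per gene); the grey area is the gene model. The highest peaks of Bach2, Creb3l2, Hlf and Mafk lie inside the gene, and that of Tef lies at its start.

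Counting the gene body with 10 kb on both sides, 45 of the 50 genes (90%) had at least 1 series-wide peak, against 61.1% of all protein-coding genes. The shares were 94% in replicate 1, against 72.3% of all genes, and 88% in replicate 2, against 74.1%. Batf2 was the only bZIP gene with 0 peaks in this window in every list. The windows held 168 series-wide peaks, all distinct, of which 49 were at gene ends, 71 elsewhere inside a gene and 48 in the flanks. This is 6.57 peaks per 100 kb of window, against 2.58 for the windows of all protein-coding genes. The bZIP genes are shorter than others (median 10361 bp, against 17149 bp). Short bZIP genes had both the highest density, 23.9 at Dbp (5104 bp), and densities of 0, as at Maf (3642 bp) and Nrl (6004 bp). The long genes Atf2 and Hlf had 2.08 and 9.41. The part of gene length in the difference was not tested. In replicate 1 the density was 10.5, against 4.78, and in replicate 2 it was 11.9, against 5.34. The median number of peaks in a window was 3, against 1, in the series-wide list. The peaks themselves were of ordinary height, with a median fold of 13.5, against 13.7 for all series-wide peaks.

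**Figure D3:**
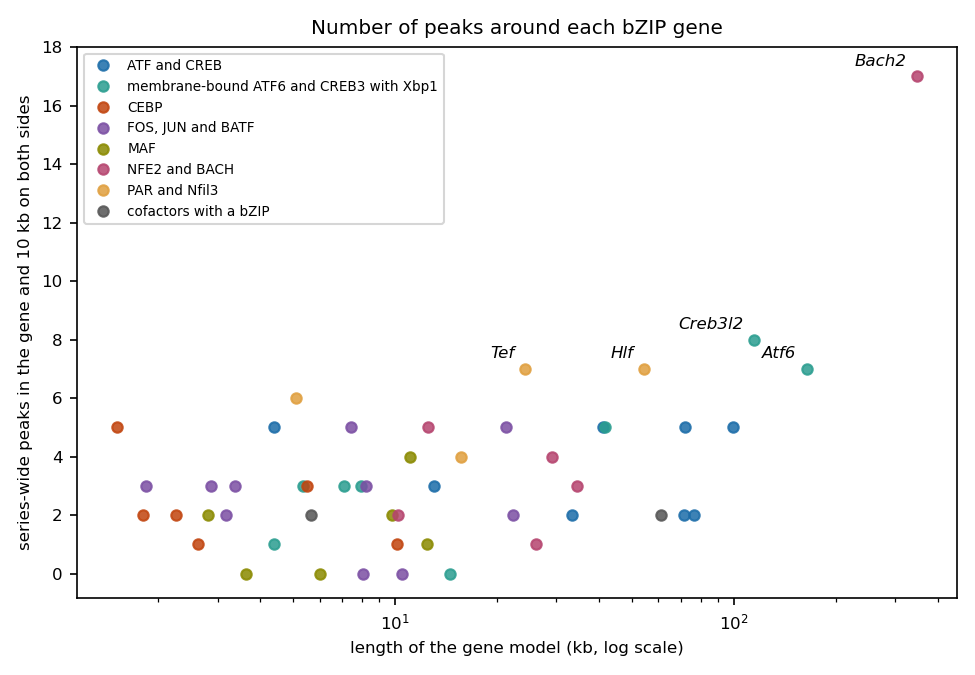
Number of series-wide peaks in the gene and 10 kb on both sides (y axis) against the length of the gene model in kb (x axis, log scale) for the 50 bZIP genes, coloured by family. The number ranges from 0 to 17, Bach2, the longest gene, has the most, and Creb3l2, Atf6, Hlf and Tef follow with 7 or 8.

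Gene-end windows did not always hold the strongest peak of a gene. It lay at a gene end at 20 of the 45 genes with any series-wide peak in the wider window. For this count, and for the places of the strong peaks below, no share over all protein-coding genes is given. They are therefore not read as a trait of the bZIP genes. Of the 17 peaks of 30-fold or more in these windows, 6 were at the ends of Atf1, Atf3, Atf6, Ddit3, Jun and Tef. A further 9 lay inside Atf6, Bach2, Creb3l1, Mafk, Nfe2l1 and Nfil3, and 2 lay in the flanks of Atf5 and Creb1, where other gene ends were not checked. The gene bodies cover more sequence in total than the windows at gene ends, so these counts do not compare how dense strong peaks were. Several of the 9 lay in Bach2, the longest gene.

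The samples were close to each other at these genes. Of the 168 peaks, 161 overlapped a peak of both replicates by at least 1 bp, and the other 7 all lay at Atf7 and Nfe2. Among the 36 genes with a gene-end peak in both, the SD was a median of 11.9% of the mean, 13 genes were higher in replicate 1 and 23 in replicate 2. The relative difference was largest at Creb3 (56.2%), Fosb (55.7%) and Bach1 (42.8%) and smallest at Jun (0.467%). The name of the series-wide list describes it as merged by IDR, a method that keeps peaks reproduced between samples. The overlap is therefore in part built in, and the closeness of the folds may be as well. No value over all peaks or genes is given for either, so they are not read as particular to the bZIP genes.

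**Figure D4:**
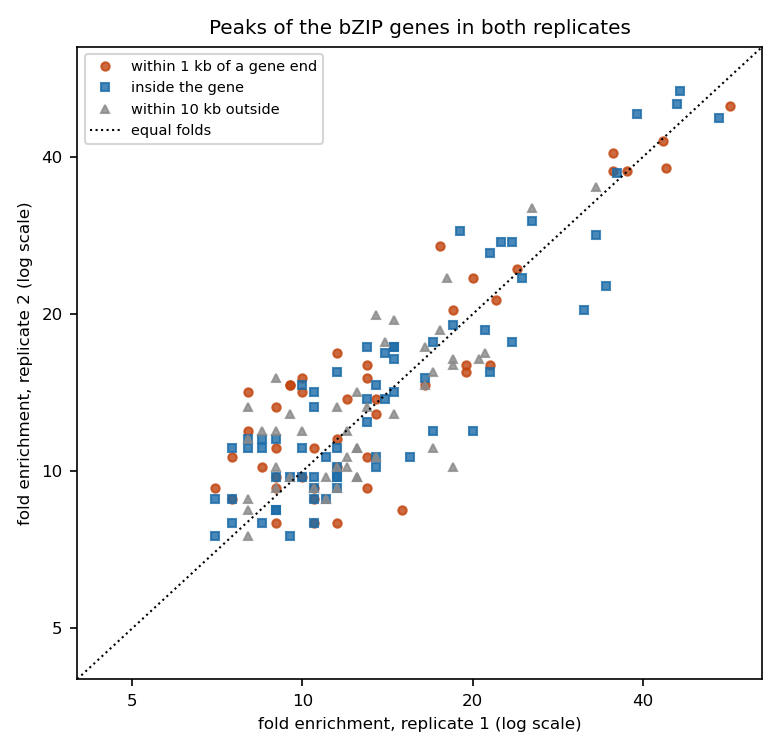
Fold enrichment in replicate 1 (x axis, log scale) and replicate 2 (y axis, log scale) of the 161 series-wide peaks of the bZIP windows found in both samples, at gene ends (circles), inside genes (squares) and in the flanks (triangles); the dotted line marks equal folds. The peak of Atf1 lies at 57.0 and 50.1 and that of Mafk at 54.5 and 47.4, and points fall on both sides of the line of equal folds.

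Other genes of the integrated stress response were set beside the bZIP genes, from a list of 27 genes such as the eIF2 alpha kinases, the phosphatase subunits and known ATF4 targets. The bZIP genes had a gene-end peak in 76% of cases with a median fold of 14.4, against 25 of these 27 genes (92.6%) with a median fold of 20.5. Over all protein-coding genes the share was 34.9% and the median fold 13.3. In the stress response list, Eif2ak2 and Slc7a11 had none. The phosphatase subunit genes, which end the response, had 27.5 and 23.0-fold at Ppp1r15a (25.3 ± 3.15, SD, n = 2) and 39.5 and 38.6-fold at Ppp1r15b (39.0 ± 0.663, SD, n = 2) in replicates 1 and 2. Nupr1, which encodes a stress-induced chromatin protein, had 35.0 and 34.1-fold (34.6 ± 0.616, SD, n = 2). The kinase genes were lower, at 8.24 ± 0.369 for Eif2ak1, 15.3 ± 0.971 for Eif2ak3 and 7.27 ± 0.378 for Eif2ak4 (SD, n = 2 each). The highest series-wide fold of the list was 52.7, at Chac1, a glutathione-degrading enzyme gene. Among bZIP genes with a gene-end peak of 30-fold or more, Ddit3, Atf3, Atf6, Jun and Tef lay between the median of the list and this value. Atf1, at 57.0, lay above it.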

How the data were processed

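Peak lists of 2 ATF4 pull-down samples and a series-wide list were used; input values were not analysed here. Per the submitters' processing notes the tools included Bowtie2, MACS2 and deepTools, whose versions are not given, and the build was mm10. The series-wide list gives the authors' deposited fold enrichment; the replicate lists give a deposited −log10 p-value or q-value, which of the pair is not given in the sources used here. Each series-wide fold was a whole multiple of a step of 0.50 or 0.443 (tolerance 0.01 of a step, 0 peaks off both). Peaks with the same start, end and summit in both lists (17420 and 21053) gave the fold that belongs to a −log10 value, with 0 and 6 exceptions, for which the commonest fold was used. The 4 and 5 lowest values continued the steps downwards, and 2 and 9 others took the nearest step. Replicate values at a gene are the highest fold among peaks overlapping its series-wide peak. Another peak at its ends can be higher in a replicate, as at Junb in replicate 1 (11.5-fold, against 10 at the peak given). Depth is unknown, so no counting interval is given, and SDs measure only the spread between these samples, which may be technical.

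A gene had a peak where at least 1 bp overlapped the window: 1 kb around either end of a RefSeq GRCm38.p6 model, or the gene with 10 kb on both sides. No statistical test of a difference was run, since input values were not analysed. The members and lists were chosen with earlier results of these data known. The text describes each family's strongest member, the 12 highest gene-end folds, the 5 genes with most peaks, the 3 largest replicate differences and all genes without a gene-end peak; the other genes named go beyond this rule, with their values known. Alternatives were other windows, stronger peaks, summits, peaks in both replicates, and each replicate alone. The counting of peaks in windows was checked on simulated peaks. Of the value columns, 0 could not be mapped. Python 3.11.15, NumPy 2.4.6, pandas 2.3.3 and Matplotlib 3.10.9 were used.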

Additional observations from a re-analysis of the deposited data

How the results depend on the processing

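The number of bZIP genes with a gene-end peak was 43 of 50 with 5 kb (47.4% of all genes), 37 with 500 bp (31.7%), 37 by summits (32.8%), 37 with 50% of the peak in the window (33.1%), 36 with peaks found in both replicates (34.3%; without Atf7 and Nfe2), and 40 and 39 in replicates 1 and 2 alone (48.2% and 50.2%). With the 20% of peaks with the highest fold the counts were 9 bZIP genes (5.66% of all genes) and 12 stress response genes at gene ends, 20 bZIP genes in the wider window (21.0% of all genes) and 31 peaks there, and the median gene-end fold was 37.7, since weaker peaks are left out by construction. In one replicate alone the median gene-end fold was 11.8 and 14.2, over 40 and 39 genes. At the bZIP peaks found in both replicates, the series-wide fold was the higher of the replicate folds, so one replicate alone gives an equal or lower value there. The set of genes changes too, and the part of each in the median was not tested. The wider windows held 268 to 303 peaks, from longer lists. Stress response genes with a gene-end peak ranged over 24 to 26 under the other settings. Genes with a peak in both replicates numbered 36 with a reciprocal overlap of 50% and 34 with the 50% of peaks with the highest values (29.4% of all genes). Unknown depth, and input values not analysed here, limit every fold, and a rank between genes closer than their SD is not settled by 2 samples.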
